A study of Mus musculus with 6 samples.

Results

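The genes described here drive DNA replication and the cell cycle: 42 genes chosen by name, of 13165 genes that the arrays measured with at least 1 probe of a single symbol. Of these 42 genes, 39 had a probe, 72 probes in all, and 37 had a brightest probe that passed the filter on dim probes. No probe carried the symbol of Pola1 (a DNA polymerase subunit), Ccnb1 (cyclin B1) or Cdkn1b (the inhibitor p27), so their expression was not analysed here. The probes of Ccnb2 (cyclin B2) and Bub1 (a spindle checkpoint kinase) lay above the array median on 0 and 1 of the 6 arrays and were not tested. The list held 12 genes of replication origins and the helicase, 7 of DNA and nucleotide synthesis, 8 cyclins, 11 genes of mitosis, 2 inhibitors (Wee1 and the unmeasured Cdkn1b) and 2 activators (E2f1 and Cdc25a).

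RNA came from cultures of J1, a line of mouse embryonic stem (ES) cells, and was measured on 6 one-colour bead arrays, 1 for each group. The groups were Noggin-treated and mock-treated cells at day 0, and Noggin-treated and mock-treated embryoid bodies, the floating aggregates in which ES cells differentiate, at day 2 and day 4. Noggin, a secreted protein that binds and blocks bone morphogenetic proteins, was used at 150 ng/ml for 3 days before aggregation and, per the series' design text, was withdrawn on the second day of embryoid body culture. Leukaemia inhibitory factor (LIF), which holds ES cells undifferentiated, was left out when the embryoid bodies formed, in both treatments. The labels do not settle whether the Noggin day 0 cells were taken before or after the 3 days of Noggin, and 1 treatment text stands on all 6 samples, mock ones included, so the groups follow the source names.

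In a dividing cell the origin recognition machinery, with Cdc6 and Cdt1, loads the Mcm2 to Mcm7 ring onto DNA, and Cdc45 and the GINS proteins then turn it into an active helicase. Cyclins D and E bind kinases that release E2F factors, which switch on genes of replication, while genes of mitosis are expressed later in the cycle. Mouse ES cells are known for fast cycles with a short first gap phase, which lengthens as they differentiate.

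All values below are normalised log2 intensities unless raw intensity is named, and the array median was 6.69 on each array. Raw median intensities lay between 152 and 176.55, over lowest intensities of 91.4 to 101.4. Markers were set beside the label of the cells. Of 12 pluripotency markers listed, 11 had a probe, and all 11 exceeded the median on both day 0 arrays. All 11 also did so on both day 2 arrays, and 10 on each day 4 array. This count therefore does not tell ES cells from embryoid bodies. Days were compared over Noggin and mock arrays together, 2 arrays a day, with 1 limma model of day and treatment, and a gene was called changed, by its brightest probe, at a Benjamini-Hochberg adjusted p under 0.05 over 15364 probes. The labels name no separate cultures, so the p-values reflect no more than the spread among these arrays, which may be technical. Comparisons with day 0 set ES cell cultures against embryoid bodies, so time and culture form cannot be told apart there. The 3 comparisons of days share arrays pairwise, so their values for a gene are not independent of each other.

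**Figure D1:**
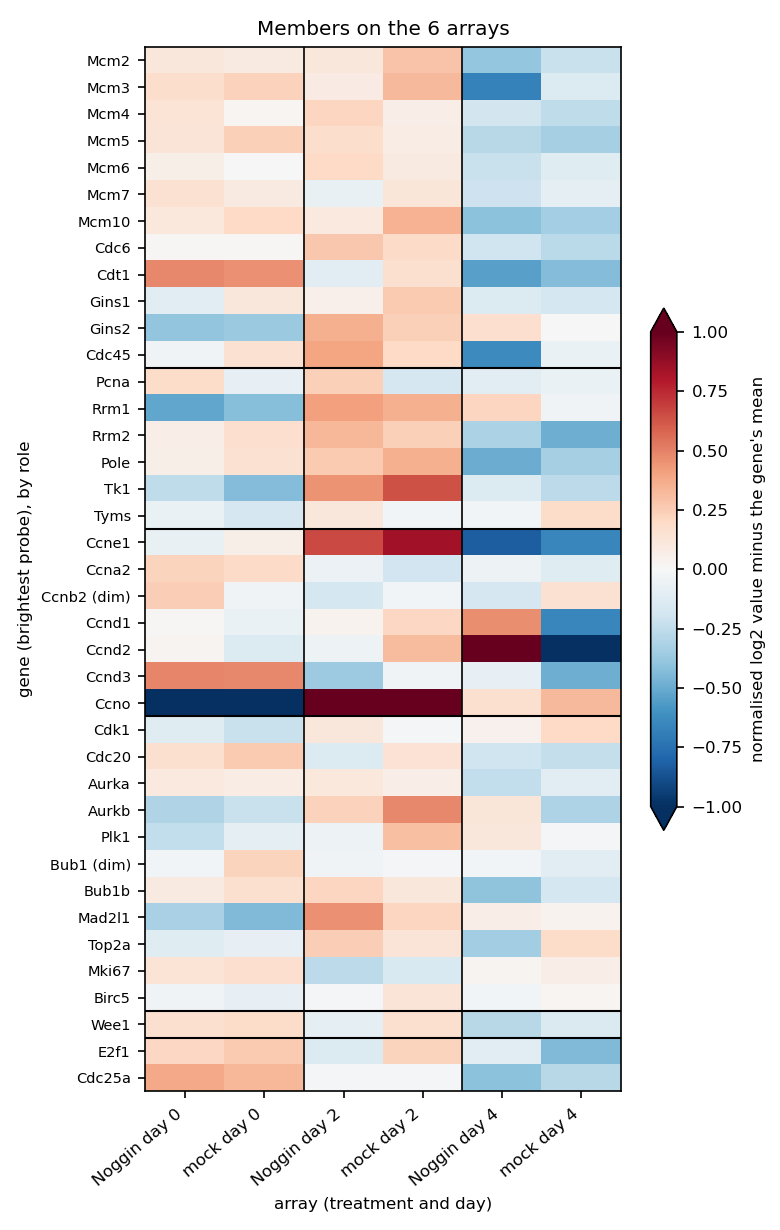
Normalised log2 intensity of the measured genes on the 6 arrays, shown relative to each gene's own mean over the arrays, with genes grouped by role and the colour scale ending at 1 on either side. Ccno stands out as low at day 0 and high at day 2, and the origin genes are below their mean on most day 4 arrays.

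Many of these genes fell between day 2 and day 4, and 10 of the 13 that passed the test belong to replication. Of the 37 tested genes, 18 are replication genes. Between day 4 and day 2, 13 of the 37 tested genes fell and 0 rose, or 35.1% called. Among all 8903 tested genes, 28.1% were called, 15.1% higher and 13.0% lower at day 4. The median difference over the 39 measured genes was -0.29, against -0.01 over all tested genes, and 34 of the 39 had a negative difference. Both day 4 arrays lay below both day 2 arrays for 25 of the 37 genes (67.6%), against 34.0% of all tested genes, and above them for 1 gene (2.7%), against 32.0%. Fewer cycling cells and less of these RNAs per cell cannot be told apart in such bulk samples.

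Against day 0, 13 genes were lower and 4 higher at day 4 (45.9% called), against 41.9% of all tested genes, of which 22.1% rose and 19.7% fell. The median difference was -0.25, against 0.00 over all tested genes. Both day 4 arrays lay below both day 0 arrays for 23 of 37 genes (62.2%), against 37.4% of all tested genes, and above them for 8 (21.6%), against 38.0%. Between day 2 and day 0, 7 genes rose and 3 fell (27.0% called), a share near the 30.0% of all tested genes, with a median of 0.11 against 0.00. Both day 2 arrays lay above both day 0 arrays for 19 genes (51.4%), against 38.9% of all tested genes, and below them for 6 (16.2%), against 37.3%.

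These counts depend on single arrays. The day 2 against day 0 count became 1 without the Noggin day 0, the mock day 0 or the mock day 2 array and 2 without the Noggin day 2 array. The day 4 against day 0 count became 1 without the Noggin day 0 array, 2 without the mock day 0 array and 11 without either day 2 array. The day 4 against day 2 count became 5 without either day 0 array, 2 without either day 2 array and 21 without either day 4 array. The signs of all 40 single-gene calls were kept without any 1 array. That check is weak, because with 2 arrays a day a call nearly requires both treatments to change alike.

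**Figure D2:**
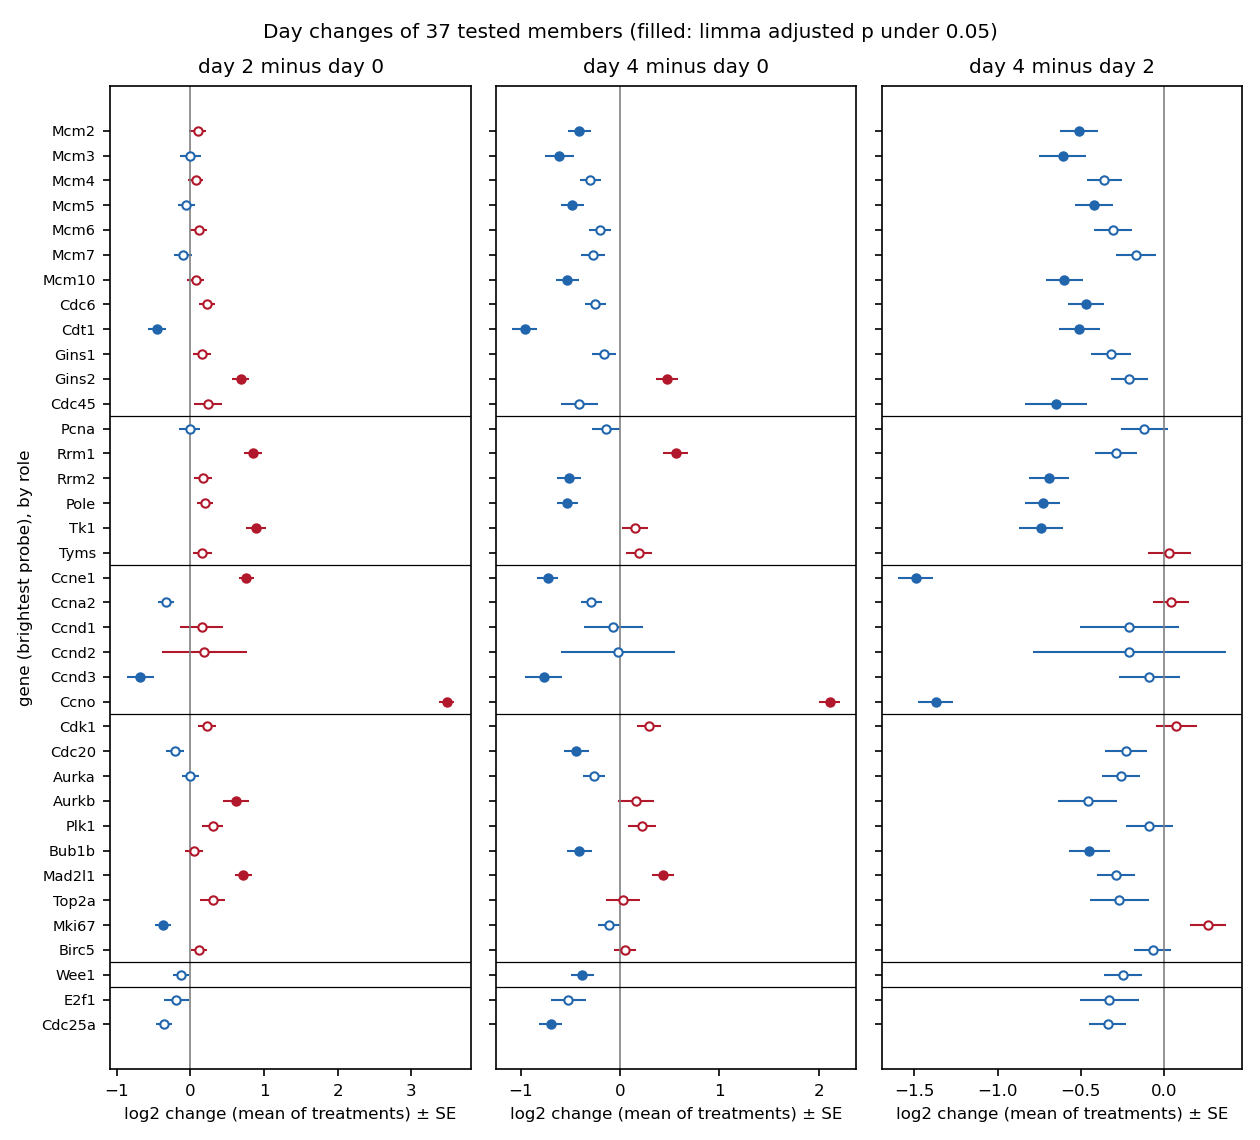
Log2 difference of each of the 37 tested genes between days, later minus earlier and averaged over treatments, by role, with bars of 1 standard error and filled points for called genes. In the day 4 against day 2 comparison all 12 origin genes lie below 0, between -0.65 and -0.17, and Ccno lies at 3.48 in day 2 against day 0.

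Origin and helicase genes moved together in the step to day 4. All 12 were lower at day 4 than at day 2. For all 12 both day 4 arrays lay below both day 2 arrays, against 34.0% of all tested genes. The fall passed the test for 7 of 12 (58.3%), against 13.0% of all tested genes. These were Cdc45 (-0.65), Mcm3 (-0.61), Mcm10 (-0.60), Mcm2 (-0.51), Cdt1 (-0.51), Cdc6 (-0.47) and Mcm5 (-0.42). A second tested probe of Cdc45 gave -0.01 (limma adjusted p = 0.966) and one of Cdc6 gave -0.43 (limma adjusted p = 0.0736), so these calls rest on the brightest probe. Cdc6 and Cdt1 load the Mcm ring, and Mcm10 takes part in activating it. The median of the 12 was -0.45, and it was -0.43 in both the Noggin arrays alone and the mock arrays alone. Against day 0, 5 of 12 were lower at day 4 (Cdt1, Mcm3, Mcm10, Mcm5 and Mcm2) and 1 was higher (Gins2). Among all tested genes, 41.9% were called in that comparison, 19.7% as lower and 22.1% as higher. Both day 4 arrays lay below both day 0 arrays for 11 of 12, against 37.4% of all tested genes. Whether these shares of origin genes differed from those of all tested genes was not tested.

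Cdt1, the licensing factor, showed the largest fall of the list by day 4 against day 0. It measured 12.22 on the Noggin array and 12.19 on the mock array at day 0, 11.62 on Noggin and 11.90 on mock at day 2, and 11.19 on Noggin and 11.30 on mock at day 4. The days did not overlap, and the order from day 0 to day 4 was downward in both treatments. The difference from day 0 was -0.96 at day 4 (SE 0.123, limma adjusted p = 0.00283) and -0.45 at day 2 (SE 0.123, limma adjusted p = 0.0415).

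Gins2, a subunit of the GINS complex, took another course. It measured 9.37 on Noggin and 9.39 on mock at day 0, 10.12 on Noggin and 10.00 on mock at day 2, and 9.93 on Noggin and 9.76 on mock at day 4. Both later days lay above day 0, by 0.68 at day 2 (SE 0.112, limma adjusted p = 0.00868) and by 0.47 at day 4 (limma adjusted p = 0.0208). Its partner Gins1, also a GINS subunit, measured 9.13 on Noggin and 9.36 on mock at day 0, 9.30 on Noggin and 9.51 on mock at day 2, and 9.11 on Noggin and 9.07 on mock at day 4, and was called in none of the comparisons.

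The brightest probes of the ring subunits Mcm4, Mcm6 and Mcm7 passed no test, with Mcm4 at -0.36, Mcm6 at -0.31 and Mcm7 at -0.17 for day 4 against day 2. Dimmer probes of Mcm4 and Mcm6 did pass there: that of Mcm4 gave -0.83 (limma adjusted p = 0.00669), and those of Mcm6 gave -0.76 (limma adjusted p = 0.0392) and -0.47 (limma adjusted p = 0.0308). Against day 0 at day 4, the dimmer Mcm4 probe gave -0.50 (limma adjusted p = 0.0166) and 1 of those of Mcm6 gave -0.49 (limma adjusted p = 0.0186). The brightest Mcm4 probe measured 12.51 on Noggin and 12.39 on mock at day 0, 12.59 on Noggin and 12.44 on mock at day 2, and 12.19 on Noggin and 12.12 on mock at day 4. Cdc45, the helicase cofactor, measured 7.94 on Noggin and 8.13 on mock at day 0, 8.37 on Noggin and 8.18 on mock at day 2, and 7.34 on Noggin and 7.91 on mock at day 4. Its day 4 arrays were lowest, with the Noggin array lowest of all, and its fall against day 2 was near the threshold (SE 0.186, limma adjusted p = 0.0494).

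Promoter sequence was set beside these groups because E2F factors are known regulators of replication genes. RefSeq windows of 300 bases around the gene start, on the assembly GRCm38.p6, were found for 33 of the 42 genes, 35 windows in all, those of the unmeasured Pola1, Ccnb1 and Cdkn1b included. The motif searched was TTTCCCGC, TTTCGCGC, TTTGCCGC or TTTGGCGC, on both strands. It stood in 6 of the 10 windows of origin genes (60.0%), 1 of 6 of synthesis genes (that of Pola1), 1 of 10 of mitosis genes and 0 of 6 of cyclin genes, against 2.26% of all 32851 windows and 2.85% of protein-coding ones. Among the 35 windows of the list it stood in 9 (25.7%). Of the origin genes with a called fall between day 2 and day 4, Cdt1, Cdc6, Mcm3 and Mcm5 held it. Mcm2, Mcm10 and Cdc45, also called, did not. Mcm6 and a window of Mcm7 held it, while the brightest probes of these genes were not called. Whether the motif goes with the fall was not tested. A match is a description of letters and not evidence of binding.

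The windows of Cdt1, Mcm3 and Mcm5, 3 origin genes that fell by day 4, are printed in the gene's direction with motif letters in capitals. That of Cdt1 is chr8:122567765-122568064 (+ strand), with its match 33 bases after the start. That of Mcm3 is chr1:20820263-20820562 (- strand), with matches at 20 and 39 after the start. That of Mcm5 is chr8:75109259-75109558 (+ strand), with a pair of overlapping matches at -153 and -149.
Cdt1: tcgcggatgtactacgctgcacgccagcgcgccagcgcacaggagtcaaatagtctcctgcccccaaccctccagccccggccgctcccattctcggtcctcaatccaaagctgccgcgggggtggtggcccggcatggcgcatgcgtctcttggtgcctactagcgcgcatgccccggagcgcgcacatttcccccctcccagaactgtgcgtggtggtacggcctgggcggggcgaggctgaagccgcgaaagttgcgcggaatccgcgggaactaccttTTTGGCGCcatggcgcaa
Mcm3: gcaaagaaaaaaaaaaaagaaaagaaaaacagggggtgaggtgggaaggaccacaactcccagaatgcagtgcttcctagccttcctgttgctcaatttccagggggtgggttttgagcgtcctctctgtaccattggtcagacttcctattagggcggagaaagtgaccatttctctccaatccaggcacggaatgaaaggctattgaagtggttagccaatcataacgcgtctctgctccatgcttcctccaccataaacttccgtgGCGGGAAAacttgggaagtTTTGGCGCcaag
Mcm5: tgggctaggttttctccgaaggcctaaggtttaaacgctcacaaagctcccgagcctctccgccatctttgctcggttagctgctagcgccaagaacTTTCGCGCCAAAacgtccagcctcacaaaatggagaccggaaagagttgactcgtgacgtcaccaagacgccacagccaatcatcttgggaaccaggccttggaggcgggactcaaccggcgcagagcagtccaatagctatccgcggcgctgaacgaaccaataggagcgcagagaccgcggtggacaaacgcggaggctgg

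Of the 6 tested synthesis genes, 2 rose by day 2 and 3 fell between day 2 and day 4. Of all tested genes, 30.0% were called in the first comparison, a share near that of these genes. In the second, 28.1% were called, 13.0% as lower. Between day 2 and day 0, Tk1 (thymidine kinase) and Rrm1 (the large subunit of ribonucleotide reductase) rose and none of the 6 tested genes fell. Between day 4 and day 2, Tk1, Pole (the catalytic subunit of DNA polymerase epsilon) and Rrm2 (the small reductase subunit) fell, and the median of the 6 was -0.49. Against day 0, Rrm1 was higher and Pole and Rrm2 were lower at day 4, 3 of the 6, against 41.9% of all tested genes. Whether these shares differed from those of all tested genes was not tested.

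Tk1 measured 8.23 on Noggin and 8.05 on mock at day 0, 8.93 on Noggin and 9.12 on mock at day 2, and 8.35 on Noggin and 8.22 on mock at day 4. Its day 2 arrays stood above all others, by 0.89 over day 0 (SE 0.133, limma adjusted p = 0.00665), and it fell by 0.74 at day 4 against day 2 (SE 0.133, limma adjusted p = 0.0139).

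The reductase subunits stood on opposite sides of their day 0 values at day 4. At day 2 the rise was already larger for Rrm1, at 0.85, than for Rrm2, at 0.17, which was not called. Rrm1 measured 8.54 on Noggin and 8.64 on mock at day 0, 9.47 on Noggin and 9.42 on mock at day 2, and 9.28 on Noggin and 9.03 on mock at day 4. Rrm2 measured 9.76 on Noggin and 9.86 on mock at day 0, 10.03 on Noggin and 9.93 on mock at day 2, and 9.38 on Noggin and 9.21 on mock at day 4. Rrm1 thus stood above its day 0 arrays on both later days, by 0.85 at day 2 (SE 0.127, limma adjusted p = 0.00642) and by 0.56 at day 4 (limma adjusted p = 0.0174). Rrm2 fell by 0.51 at day 4 against day 0 (SE 0.12, limma adjusted p = 0.0194), with no overlap of the arrays. Whether the changes of these subunits differed from each other was not tested.

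Pcna, the sliding clamp of DNA polymerases, and Tyms, thymidylate synthase, were not called between any days by their brightest probes. Pcna measured 13.14 on Noggin and 12.87 on mock at day 0, 13.19 on Noggin and 12.79 on mock at day 2, and 12.85 on Noggin and 12.89 on mock at day 4. Its Noggin value was the higher one at days 0 and 2, by 0.27 and 0.40. Tyms measured 10.60 on Noggin and 10.50 on mock at day 0, 10.78 on Noggin and 10.64 on mock at day 2, and 10.64 on Noggin and 10.85 on mock at day 4. Its day 2 and day 4 arrays overlapped, and both days lay above day 0. A dimmer Tyms probe was called at day 4 against day 0 (0.37, limma adjusted p = 0.0457).

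The cyclins moved in different directions. Ccno, cyclin O, known for its part in making multiciliated cells, had the largest change of the list, and Ccne1 (cyclin E1, of the entry into S phase) rose and then fell. The D cyclins act in the first gap phase. Between day 2 and day 0, Ccno and Ccne1 rose and Ccnd3 fell, 3 of 6 tested cyclins. Of all tested genes, 30.0% were called there. Between day 4 and day 2, Ccne1 and Ccno fell, 2 of 6, against 28.1% of all tested genes called. Against day 0, Ccno was higher and Ccnd3 and Ccne1 were lower at day 4, 3 of 6, against 41.9%. Whether these shares differed from those of all tested genes was not tested.

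Ccno measured 7.01 on Noggin and 7.14 on mock at day 0, 10.47 on Noggin and 10.64 on mock at day 2, and 9.10 on Noggin and 9.26 on mock at day 4. Its raw intensity was 194.6 on Noggin and 203.4 on mock at day 0, a little above the array medians, and 1691.5 on Noggin and 1589.0 on mock at day 2. The 3 days did not overlap and both treatments gave the same order. Background and the offset of 50 make up much of so dim a signal as that of day 0, and fold changes against it are understated. The rise at day 2 over day 0 was 3.48 (SE 0.105, 11.2-fold, limma adjusted p = 0.000251), day 4 stood 2.11 above day 0 (SE 0.105, 4.31-fold, limma adjusted p = 0.000368), and it fell by 1.37 at day 4 against day 2 (SE 0.105, limma adjusted p = 0.00196). Ccno had 1 probe, so no other probe checks its course.

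The Ccno window, shown because it held no E2F motif while the gene had the largest change, is chr13:112987552-112987851 (+ strand).
Ccno: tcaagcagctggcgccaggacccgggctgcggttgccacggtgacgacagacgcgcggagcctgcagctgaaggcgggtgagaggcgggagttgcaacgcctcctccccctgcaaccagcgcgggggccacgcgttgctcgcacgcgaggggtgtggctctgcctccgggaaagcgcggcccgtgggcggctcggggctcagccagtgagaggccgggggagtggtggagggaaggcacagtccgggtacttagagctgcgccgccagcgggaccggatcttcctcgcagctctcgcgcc

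Ccne1 measured 9.11 on Noggin and 9.24 on mock at day 0, 9.84 on Noggin and 10.02 on mock at day 2, and 8.36 on Noggin and 8.53 on mock at day 4. The days did not overlap. Day 2 stood 0.76 above day 0 (SE 0.106, limma adjusted p = 0.00538), and day 4 was 2.8-fold lower than day 2, a log2 difference of -1.49 (SE 0.106, limma adjusted p = 0.00174). A dimmer second probe of Ccne1, close to the array median, gave 0.55 for day 2 against day 0 and had smaller differences between day 4 and day 2, -0.40 in Noggin and -0.51 in mock arrays. It gave 0.09 for day 4 against day 0 and was not called there (limma adjusted p = 0.577), where the brightest probe gave -0.73 (limma adjusted p = 0.00405).

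Ccnd3, cyclin D3, measured 8.43 on Noggin and 8.42 on mock at day 0, 7.58 on Noggin and 7.91 on mock at day 2, and 7.86 on Noggin and 7.45 on mock at day 4. Both later days lay below day 0, with differences of -0.68 at day 2 (SE 0.184, limma adjusted p = 0.04) and -0.77 at day 4 (limma adjusted p = 0.0209). A dimmer Ccnd3 probe gave -0.13 at day 2 (limma adjusted p = 0.447) and -0.44 at day 4 (limma adjusted p = 0.0308). Ccna2, cyclin A2 of S phase and mitosis, measured 10.48 on Noggin and 10.45 on mock at day 0, 10.20 on Noggin and 10.07 on mock at day 2, and 10.21 on Noggin and 10.14 on mock at day 4. Its later arrays lay below its day 0 arrays, but it was called in none of the comparisons.

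The brightest probes of Ccnd1 and Ccnd2, cyclins D1 and D2, were not called between days, and their treatments separated at day 4. Ccnd1 measured 10.88 on Noggin and 10.80 on mock at day 0, 10.90 on Noggin and 11.07 on mock at day 2, and 11.33 on Noggin and 10.21 on mock at day 4. Ccnd2 measured 9.83 on Noggin and 9.67 on mock at day 0, 9.75 on Noggin and 10.12 on mock at day 2, and 10.86 on Noggin and 8.59 on mock at day 4. With the brightest probe of each gene, the Noggin day 4 array was the highest of the 6 and the mock day 4 array the lowest. In the additive model this separation counts as residual, and their day contrasts had standard errors of 0.297 and 0.577. The dimmest of the 4 Ccnd1 probes was called at day 2 against day 0 (0.69, limma adjusted p = 0.0183).

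**Figure D3:**
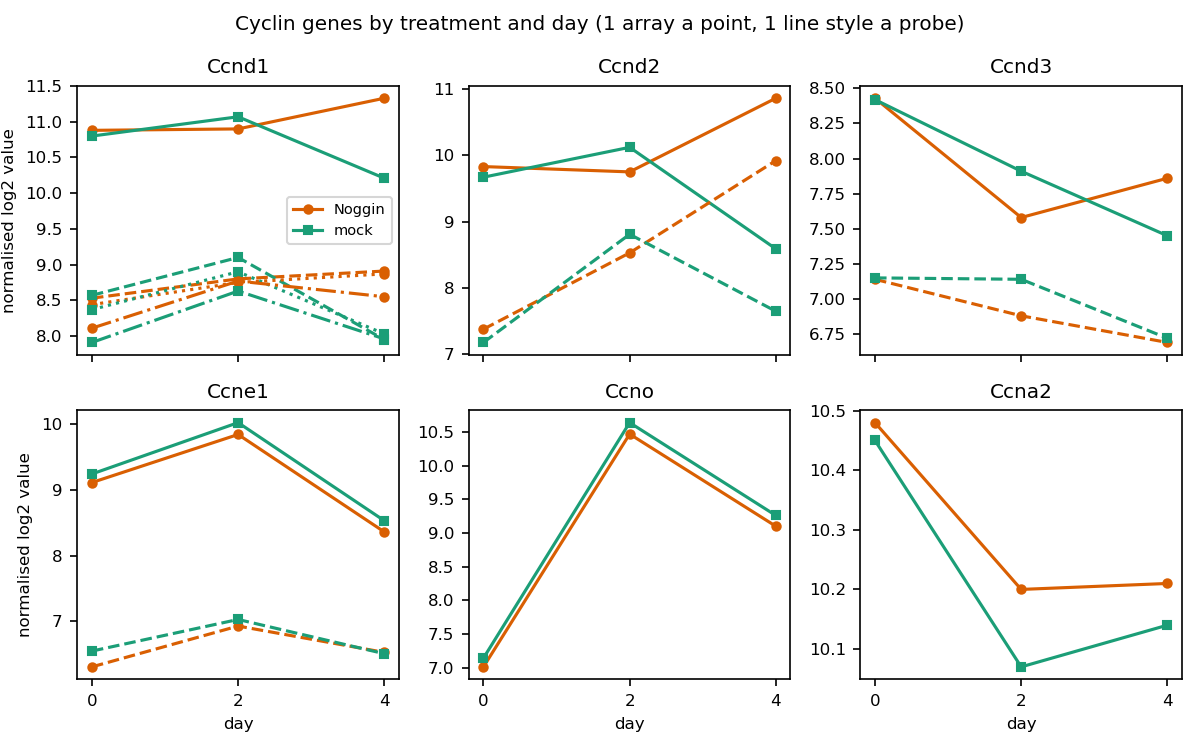
Normalised log2 intensity of the tested cyclins by day (0, 2 and 4), with Noggin and mock arrays as separate lines, 1 array a point, 1 line style a tested probe and no error bar; the vertical axes do not start at 0 and differ between genes. Ccno and Ccne1 keep the treatments close on every day, and Ccnd2 reaches 10.86 on the Noggin array at day 4, against 8.59 on the mock array.

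Of the 10 tested mitosis genes, 10.0% were called between day 4 and day 2, against 28.1% of all tested genes, and 30.0% both at day 2 and at day 4 against day 0, where 30.0% and 41.9% of all tested genes were called. Between day 4 and day 2, 1 of 10 fell (Bub1b, a checkpoint kinase, -0.45) and 0 rose. Of all tested genes, 13.0% were called lower there, a share near that of these genes, and 15.1% higher. The median was -0.23, and 9 of the 11 measured genes had a negative difference. Both day 4 arrays lay below both day 2 arrays for 5 of the 10, against 34.0% of all tested genes. They lay above them for 1, against 32.0%. Dimmer probes of Cdc20 (-0.69 and -0.63) and Top2a (-0.52) also passed in that comparison, while their brightest probes did not. Between day 2 and day 0, Mad2l1 (a spindle checkpoint protein) and Aurkb (a kinase of chromosome segregation) rose and Mki67 (the proliferation antigen Ki-67) fell. Against day 0, Mad2l1 was higher and Cdc20 (which activates the anaphase-promoting complex) and Bub1b were lower at day 4. Whether origin and mitosis genes differed in their changes was not tested.

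Mad2l1 measured 9.89 on Noggin and 9.77 on mock at day 0, 10.67 on Noggin and 10.43 on mock at day 2, and 10.28 on Noggin and 10.25 on mock at day 4. Its later arrays all lay above day 0, by 0.72 at day 2 (SE 0.113, limma adjusted p = 0.00756) and by 0.43 at day 4 (limma adjusted p = 0.0281). Aurkb measured 8.43 on Noggin and 8.51 on mock at day 0, 8.96 on Noggin and 9.21 on mock at day 2, and 8.85 on Noggin and 8.42 on mock at day 4. It rose by 0.62 at day 2 (SE 0.178, limma adjusted p = 0.0485), and its day 4 arrays overlapped day 0.

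Mki67 measured 10.01 on Noggin and 10.04 on mock at day 0, 9.61 on Noggin and 9.72 on mock at day 2, and 9.90 on Noggin and 9.94 on mock at day 4. It fell by 0.37 at day 2 against day 0, near the threshold (SE 0.107, limma adjusted p = 0.0498). A dimmer tested Mki67 probe gave -0.27 there and was not called (limma adjusted p = 0.314). With the brightest probe, the Mki67 difference of 0.26 between day 4 and day 2 was the highest of the list and not called. Plk1, a kinase of mitotic entry, measured 9.68 on Noggin and 9.83 on mock at day 0, 9.88 on Noggin and 10.23 on mock at day 2, and 10.04 on Noggin and 9.91 on mock at day 4. Top2a, the topoisomerase that untangles chromosomes, measured 10.38 on Noggin and 10.42 on mock at day 0, 10.75 on Noggin and 10.63 on mock at day 2, and 10.16 on Noggin and 10.69 on mock at day 4. Neither Plk1 nor Top2a was called between days by its brightest probe. The dimmer Top2a probe was called at day 2 against day 0 (0.60, limma adjusted p = 0.0119) and at day 4 against day 2 (-0.52, limma adjusted p = 0.0213). The remaining mitosis genes, the kinases Cdk1 and Aurka and the survivin gene Birc5, were not called either: at day 4 against day 2 they differed by 0.07, -0.26 and -0.07.

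Genes of mitosis are often read through a CHR element, a short promoter motif bound by the MuvB complex. The letters TTTGAA or TTCGAA, on either strand, stood in 8 of 10 windows of mitosis genes (80.0%), 3 of 10 of origin genes (30.0%), 1 of 6 of cyclin genes and 0 of 6 of synthesis genes, against 19.2% of all windows. CCAAT, on either strand, stood in 25 of the 35 windows of the list (71.4%), against 37.4% of all windows. So short a motif occurs often without being a site.

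The windows of Cdc20 and Mki67 are shown with CHR letters in capitals. Both had a called fall against day 0, Cdc20 at day 4 and Mki67 at day 2 only. That of Cdc20 is chr4:118437294-118437593 (- strand), with its match at -18 from the start, and that of Mki67 is chr7:135716330-135716629 (- strand), with matches at -116 and -98.
Cdc20: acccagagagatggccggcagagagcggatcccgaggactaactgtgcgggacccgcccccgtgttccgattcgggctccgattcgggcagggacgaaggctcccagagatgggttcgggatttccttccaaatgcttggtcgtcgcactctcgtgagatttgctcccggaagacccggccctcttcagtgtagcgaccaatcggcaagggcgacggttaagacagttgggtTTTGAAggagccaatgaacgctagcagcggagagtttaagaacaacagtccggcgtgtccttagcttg
Mki67: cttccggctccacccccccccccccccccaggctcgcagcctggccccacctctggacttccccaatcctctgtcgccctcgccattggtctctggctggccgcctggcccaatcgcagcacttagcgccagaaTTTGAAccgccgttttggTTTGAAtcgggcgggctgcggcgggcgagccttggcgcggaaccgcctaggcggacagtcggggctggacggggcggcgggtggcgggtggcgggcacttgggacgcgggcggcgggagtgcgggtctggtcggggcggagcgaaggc

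Of 1 tested inhibitor and 2 tested activators, Wee1 and Cdc25a fell at day 4 against day 0. Of all tested genes, 19.7% were called lower there, and so few genes allow no comparison with that share. Wee1, a kinase that holds Cdk1 inactive, measured 9.26 on Noggin and 9.28 on mock at day 0, 9.01 on Noggin and 9.26 on mock at day 2, and 8.82 on Noggin and 8.95 on mock at day 4. It fell by 0.38 at day 4 against day 0 (SE 0.114, limma adjusted p = 0.0423). Cdc25a, the phosphatase that opposes Wee1, measured 9.01 on Noggin and 8.96 on mock at day 0, 8.62 on Noggin and 8.62 on mock at day 2, and 8.22 on Noggin and 8.35 on mock at day 4. It fell by 0.70 at day 4 against day 0 (SE 0.112, limma adjusted p = 0.0055), so the inhibitory kinase and its opposing phosphatase were both lower. E2f1, a transcription factor of S phase genes, measured 9.14 on Noggin and 9.20 on mock at day 0, 8.80 on Noggin and 9.16 on mock at day 2, and 8.82 on Noggin and 8.49 on mock at day 4, and was called in none of the comparisons.

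Averaged over the days, Noggin changed 0 of the 37 tested genes in the limma fit, and 0 of all 8903 tested genes (0.0%). At an unadjusted p under 0.05 it was 0 of the 37 genes and 468 of the 15364 probes, and the smallest adjusted p was 0.969. No other tool was run. This fit takes differences between days in the Noggin effect as residual spread.

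On single days Noggin and mock were 1 array each, so the differences below carry no test. Over the measured genes the median difference, Noggin minus mock, was -0.02 at day 0, -0.11 at day 2 and -0.04 at day 4, against 0.00, -0.02 and 0.02 over all tested genes. The 2 arrays of a day lay closest at day 0, where the SD of differences over probes above both medians was 0.118, and this SD was 0.187 at day 2 and 0.378 at day 4. At day 0, 0 genes of the list differed by at least 2-fold, with a range of -0.25 to 0.28, and 0.0% of all tested genes did. At day 2, 0 genes of the list did, with a range of -0.37 (Ccnd2) to 0.40 (Pcna), and 0.0337% of all tested genes did.

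At day 4, 2 genes of the list, Ccnd1 and Ccnd2, were at least 2-fold higher on the Noggin array and 0 were at least 2-fold lower, against 1.3% of all tested genes higher and 1.39% lower, 2.7% in all. Ccnd2 had a raw intensity of 1814.7 on the Noggin array, against 438.5 on the mock array, and after normalisation differed by 2.27, or 4.82-fold. A second probe measured 978.0 against 252.9 and differed by 2.28, or 4.85-fold. The remaining probe, above the median on 1 array, differed by 1.24. For Ccnd1 the 4 probes differed by 1.12, 0.96, 0.84 and 0.59, from 2.17-fold to 1.5-fold, all higher on the Noggin array. The third D cyclin, Ccnd3, differed by 0.41, Aurkb by 0.43 and E2f1 by 0.33. By brightest probe, the lowest differences were those of Cdc45 (-0.57), Top2a (-0.54) and Mcm3 (-0.53), but second probes of Cdc45 and Top2a each gave 0.16, the opposite sign.

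Marker levels of other cell states moved in the same samples. At day 4 the summed normalised signal of the 11 measured pluripotency markers was 8678 on the Noggin array and 20314 on the mock array, with 10 of 11 above the median on each. That of the 6 measured early mesoderm markers, of 10 listed, was 11227 on the Noggin array and 2478 on the mock array, with 6 of 6 above the median on each. At day 2 these sums were 16323 on Noggin and 19880 on mock for pluripotency, and 925 on Noggin and 990 on mock for mesoderm. At day 0 they were 54971 on Noggin and 52624 on mock for pluripotency, and 872 on Noggin and 865 on mock for mesoderm. Of 10 fibroblast markers, which feeder cells would carry, 5 had a probe, and their sum was 2820 on Noggin and 2142 on mock at day 0, 703 on Noggin and 659 on mock at day 2, and 437 on Noggin and 498 on mock at day 4. Of these 5, 4 on Noggin and 3 on mock exceeded the median at day 0, 3 on each at day 2, and 2 on Noggin and 1 on mock at day 4. The day 0 sums rest mostly on Dcn, a fibroblast matrix gene, at 11.03 on Noggin and 10.50 on mock. Dcn fell by 2.86 at day 2 against day 0 in the limma fit, and Thy1 by 1.2. Vim differed by -0.10 and was not called. The part of these markers in the results was not tested.

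**Figure D4:**
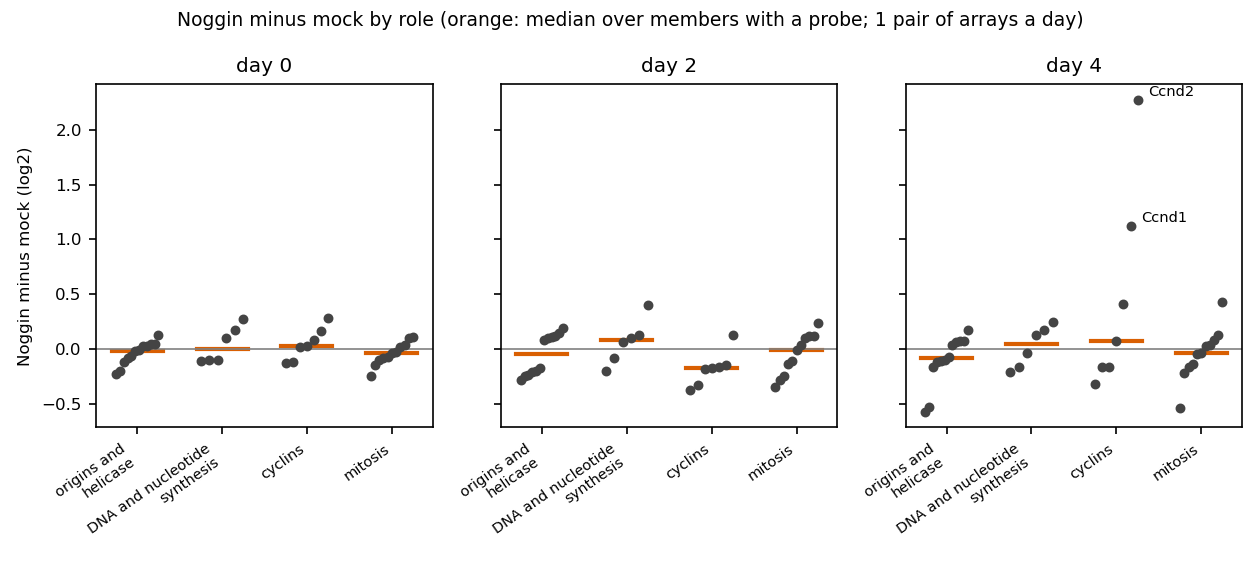
Log2 difference of Noggin minus mock for genes of origins, synthesis, cyclins and mitosis on day 0, day 2 and day 4, 1 array a group, with a bar at the median of each role. The genes lie between -0.25 and 0.28 at day 0, and Ccnd1 and Ccnd2 stand apart at day 4, at 1.12 and 2.27.

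Different probes of 1 gene did not always agree. Of 17 genes with several tested probes, all probes had the same sign in 15 for day 4 against day 2, 13 for day 2 against day 0, 11 for day 4 against day 0 and 9 for Noggin averaged over days. At day 4, the brightest probes of Cdc20, Mcm7 and Mcm6 differed between Noggin and mock by 0.04, -0.12 and -0.10. Dimmer probes of the same genes differed by -0.80 and -0.73 for Cdc20, -0.75 for Mcm7 and -0.66 for Mcm6. For Ccnd2 the mock arrays at day 4 were below day 0 by -1.08 with the brightest probe and above it by 0.47 with the second. For Ccnd1 the mock difference between day 4 and day 0 was -0.59 with the brightest probe and 0.05 with the dimmest.

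Other genes of the same pathways were counted from 3 further lists. Of 29 tested replication genes outside the 42, 6 rose and 1 fell between day 2 and day 0 (24.1% called, against 30.0% of all tested genes). Between day 4 and day 0, 1 rose and 6 fell (24.1%, against 41.9%, of which 19.7% were lower). Between day 4 and day 2, 1 rose and 6 fell (24.1%, against 28.1%, of which 13.0% were lower). In the latter comparison 27 of the 31 measured genes of this list had a negative difference. Their median was -0.21, against -0.01 over all tested genes. Among them were Rfc5, a clamp loader subunit, which fell by 1.04 at day 4 against day 2 (SE 0.114, limma adjusted p = 0.00417), Rpa3, a subunit of the single-strand binding protein, which rose by 1.04 at day 4 against day 0 (SE 0.105, limma adjusted p = 0.00149), and Dut, which removes dUTP, which rose by 0.76 at day 2 (SE 0.119, limma adjusted p = 0.00746). Lig1, the ligase of Okazaki fragments, fell by 0.62 at day 4 against day 0 (SE 0.111, limma adjusted p = 0.00833).

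Of 22 tested mitosis genes outside the 42, 1 rose and 1 fell between day 2 and day 0 (9.09% called, against 30.0% of all tested genes). Between day 4 and day 0, 1 rose and 6 fell (31.8%, against 41.9%, of which 19.7% were lower). Between day 4 and day 2, 0 rose and 2 fell (9.09%, against 28.1%, of which 13.0% were lower). Ccnf, cyclin F, a part of a ubiquitin ligase, fell by 0.95 at day 4 against day 0 (SE 0.108, limma adjusted p = 0.00208), and Incenp, a partner of Aurkb, fell by 0.68 (SE 0.127, limma adjusted p = 0.00923).

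The list of further inhibitors, kinases and E2F partners had 23 tested genes, with changes in both directions: 5 rose and 5 fell at day 2 against day 0 (43.5% called, against 30.0% of all tested genes), 4 rose and 6 fell at day 4 against day 0 (43.5%, near the 41.9% of all tested genes), and 3 rose and 5 fell at day 4 against day 2 (34.8%, against 28.1%). Cdkn1c, the kinase inhibitor p57, rose by 1.85 at day 2 (SE 0.27, limma adjusted p = 0.0061) and by 1.91 at day 4 (SE 0.27, limma adjusted p = 0.00375) against day 0. Cdkn1a, the inhibitor p21, fell by 1.91 at day 4 against day 0 (SE 0.154, limma adjusted p = 0.000904). These inhibitors of 1 protein family thus changed in opposite directions. Ccng2, a cyclin known as an inhibitor of the cycle, rose by 1.18 at day 4 against day 2 (SE 0.124, limma adjusted p = 0.00384). Tfdp2, a partner of E2F factors, fell by 1.14 there (SE 0.145, limma adjusted p = 0.00583). At day 2 against day 0, Ccng2 had fallen by 0.51 (limma adjusted p = 0.0301) and Tfdp2 had risen by 0.91 (limma adjusted p = 0.00786). At day 4 against day 0, Ccng2 differed by 0.68 (limma adjusted p = 0.00893) and Tfdp2 by -0.23, not called (limma adjusted p = 0.25). Averaged over days, Noggin changed 0 genes of these 3 lists in the limma fit, and 0 of all 8903 tested genes. On the day 4 arrays alone, Noggin minus mock differences of the inhibitors, kinases and E2F partners ranged from -0.48 (Cdk4) to 0.99 (Cdkn1c). These differences were not tested.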

How the data were processed

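The deposited table of each array lists an intensity for each of 27496 probes, per the file headers, and its values show no background subtraction or scaling between arrays. Detection values, slides and scan dates were not among the files, and the scanner software is not given in the sources used here. The authors' series matrix of 27495 probes was found, by comparison with the intensities, to be their quantile-normalised log2 without background correction (median 7.37 in each column), and served as an alternative. Its scale and normalisation are not stated by the authors.

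Gene symbols belong to the matrix probes, so each array probe was linked to the matrix probe with equal log2 values within 0.006, which gave 27491 links and 19419 probes with 1 symbol. Another 6 had several symbols and 8071 had none. For 19389 probes the Entrez identifier matched RefSeq genes, and 0 symbols were updated.

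Intensities were background-corrected (normexp, offset 50), put on the log2 scale and quantile-normalised by limma 3.58.1 (R 4.3.3). The plan named neqc where detection values exist, which these lack. A probe was tested if 2 or more of its 6 values exceeded the array's median, which left 15364. Additive effects of day and treatment were fitted in limma (2 residual and 4.05 prior degrees of freedom), which gave the 4 contrasts, with Benjamini-Hochberg adjustment over all tested probes. Precision is limited by the number of arrays. The probe with the highest mean stood for its gene. Single-day differences, Noggin minus mock, had no test. Differences between days are later minus earlier.

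The 42 genes, the further lists (replication, mitosis, inhibitors and E2F partners, and the markers of pluripotency, fibroblasts and mesoderm) and the tests were chosen with earlier results of these data known. Every gene of the 42 could be named. Values on 6 arrays were given for genes called with a log2 change of at least 1, for the extremes of each role in the daily Noggin difference, and always for Ccnd1, Ccnd2, Ccnd3, Ccno, Wee1, E2f1, Mki67 and Pcna. At most 4 called genes were named in each further list. Promoter windows came from RefSeq (GRCm38.p6). No coordinates of probes are given, since no build is named with the arrays. The alternatives were other background corrections, scaling, filters, the series matrix, simpler models and leaving out each array.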

Additional observations from a re-analysis of the deposited data

Results flagged for a closer look

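In 5 genes the Noggin and mock arrays moved in opposite directions, or the difference of Noggin minus mock turned its sign between days, by at least 0.236 on the log2 scale on each side. Each rests on 1 array a group, so none of these differences was tested. The minimum is tied to the spread of the day 0 pair of arrays, and the day 4 pair was spread more widely.

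Ccnd2 changed by 1.03 in Noggin arrays and -1.08 in mock arrays at day 4 against day 0, and by 1.11 in Noggin arrays and -1.53 in mock arrays at day 4 against day 2. Its Noggin minus mock difference was -0.37 at day 2 and 2.27 at day 4. Ccnd1 changed by 0.46 in Noggin arrays and -0.59 in mock arrays at day 4 against day 0, and by 0.43 in Noggin arrays and -0.85 in mock arrays at day 4 against day 2. Other probes of both genes put the fall in mock arrays against day 0 at another value or sign, as given above.

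Ccnd3 changed by 0.28 in Noggin arrays and -0.46 in mock arrays at day 4 against day 2, and its Noggin minus mock difference was -0.33 at day 2 and 0.41 at day 4. A dimmer Ccnd3 probe changed by -0.19 in Noggin arrays and -0.42 in mock arrays at day 4 against day 2, so it did not share the turn. For Aurkb the Noggin minus mock difference was -0.25 at day 2 and 0.43 at day 4. For E2f1 it was -0.37 at day 2 and 0.33 at day 4.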

How the results depend on the processing

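Of the 40 single-gene calls between days, 26 held under every alternative that used all arrays or left out both day 4 arrays, 14 were lost under at least 1, and 0 changed sign. An offset of 16 lost 12, median scaling 9, and testing all probes 5. With offset 16 the day 2 against day 0 count was 6 in place of 10, with 6 higher and 0 lower in place of 7 and 3. With every probe of a gene counted it was 16, with 13 higher, and the day 4 against day 2 count was 22 in place of 13. Genes lower at day 2 than at day 0 numbered 5 without background correction, in the series matrix and without both day 4 arrays, and 1 with median scaling, where 7 were higher. The median Noggin minus mock difference at day 2 was 0.043 with median scaling, in place of -0.109. The median of the cyclins was -0.073 for day 2 against day 0 and 0.013 for day 4 against day 2 in Noggin arrays alone, the reverse of its sign over both treatments. The cause was not tested.

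Without single arrays, which leaves 1 residual degree of freedom, the day 2 against day 0 count lay between 1 and 14 (1 to 9 higher, 0 to 5 lower). The day 4 against day 0 count lay between 1 and 25 (1 to 8 higher, 0 to 17 lower) and the day 4 against day 2 count between 2 and 21 (0 to 2 higher, 2 to 21 lower). Higher counts came without the Noggin or mock day 4 array and lower ones without a day 0 or day 2 array. Noggin averaged over days called 0 of the 37 genes in every fit, while 4 of all tested probes passed in the fits without a day 4 array. No paired analysis was possible because the labels carry no replicate numbers, other than the matching of Noggin with mock by day that the model already holds. With day alone in the model the counts were 11 for day 2 against day 0, 18 for day 4 against day 0 and 15 for day 4 against day 2. Dim probes, near background, have compressed differences.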
